A study of Mus musculus with 24 samples.

Results

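Collagen chains are the α subunits that assemble in groups of 3 into the triple-helical proteins of the extracellular matrix. The members described here were every gene whose symbol is Col, a number, the letter a and a second number. They came to 44 of the 24825 genes listed, and 31 of the 44 reached 1 FPKM (fragments scaled to gene length in kilobases and to library size) in at least 3 of the 24 libraries. The rule used only the gene names and that level, and every count of changes below describes these 31 chains.

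RNA-seq was measured in the stromal vascular fraction of inguinal white fat of the mouse, which contains adipocyte precursors among other cells. All cells came from Nfia flox/flox mice, in which loxP sites flank exon 2 of the gene for the transcription factor NFIA, and had been immortalised with a retrovirus for SV40 large T antigen. Ctrl cells received the empty retroviral vector and the other 3 cell types a vector for Cre recombinase. Of these, Cre + NFIA also carried whole NFIA with a FLAG tag, from a pMXs retrovirus, and Cre + NFIA Δpro#3 the same construct without a C-terminal proline-rich segment. Each cell type was collected at day 0, before differentiation, and at day 7 of a thermogenic adipocyte protocol with isobutylmethylxanthine, indomethacin, dexamethasone, insulin, T3 and rosiglitazone. There were 3 libraries in each of the 8 groups, and nothing says whether they were separate cultures or infections, so p-values measure only the spread between these libraries.

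The level of Nfia itself did not fall in the libraries labelled Cre. It was 6.23 to 6.75 FPKM in ctrl and 5.34 to 6.81 in libraries labelled Cre at day 0, and 9.15 to 9.81 against 9.49 to 10.7 at day 7. A gene-level value cannot show the loss of a single exon, so from these libraries alone every direction involving Cre rests on the label. The adipocyte gene sum of day 7, given below, was lower in each library labelled Cre than in any ctrl library. At day 0 Cre + NFIA stood at 69.7 to 74.9 FPKM and Cre + NFIA Δpro#3 lower without overlap, at 59.7 to 61.7. At day 7 they overlapped, at 83.9 to 97.1 and 95.0 to 111. These values include reads of the transgenes. Library totals were 7732829 to 14622189 reads.

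Fibrillar collagens (types I, II, III, V and their relatives) form the tensile fibrils of connective tissue, type IV forms the sheet of basement membranes, and type VI forms beaded filaments around cells. Fibril-associated collagens (FACITs) sit on fibril surfaces, and the multiplexins, types XV and XVIII, lie in the basement membrane zone. Precursors in adipose tissue are known for a fibrillar matrix, and mature fat cells for the basement membrane and type VI collagen that wrap each cell.

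The cell populations were read from marker genes. The summed FPKM of 12 adipocyte genes was 86.8 to 129 over the day 0 libraries. At day 7 it was 22653 to 26256 in ctrl, 4537 to 9709 in libraries labelled Cre, 21777 to 21969 in Cre + NFIA and 874 to 2206 in Cre + NFIA Δpro#3. The sum of 8 precursor or fibroblast genes, with Dpp4 at no more than 6 reads in any library, was 2029 to 2382 at day 0. By day 7 it read 520.3 to 572 in ctrl, 1111 to 1245 in libraries labelled Cre, 537 to 607 in Cre + NFIA and 1270 to 1523 in Cre + NFIA Δpro#3. In bulk libraries fewer cells of a type and less RNA per cell cannot be told apart, and this touches every comparison below. Of 7 endothelial genes Tie1 was at 0 in all 24 libraries, and Cdh5, Emcn and Cldn5 at no more than 3 reads, while Pecam1 reached 19 reads, Kdr 0.247 to 3.73 FPKM and Tek 0.700 to 7.34 FPKM. Their sum was 1.55 to 10.2 FPKM over all libraries. Of 6 leukocyte genes in the files Adgre1 was at 0, and Ptprc and Itgam at no more than 2 reads, while Csf1r reached 3.64 FPKM, Lyz2 5.71 FPKM and Cd68, which stood at 3.53 to 8.23 FPKM, was present in every library. Their sum was 4.48 to 13.6 FPKM. The sum of 6 pericyte or smooth muscle genes was 228 to 293 FPKM in ctrl, 273 to 336 in libraries labelled Cre, 128 to 153 in Cre + NFIA and 369 to 455 in Cre + NFIA Δpro#3 at day 7. Before differentiation the same sum read 211 to 244, 153 to 170.3, 111 to 126 and 122 to 133 in this order. Acta2 (69.2 to 280 FPKM) and Tagln (31.5 to 149) made up most of it. Cnn1 stood at 4.57 to 24.8, and Myh11, Cspg4 and Rgs5 reached 3.03, 1.54 and 0.746. Of 5 genes tested as described below, 2 were higher and 2 lower in Cre relative to ctrl at day 7. In Cre + NFIA relative to Cre 2 were higher and 3 lower. Cre + NFIA Δpro#3 relative to Cre + NFIA had 3 higher and 2 lower. The sum thus does not speak for the whole list, and the shares of all genes are given below.

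Collagen transcripts made up 1.58% to 2.79% of all reads as group means. The summed FPKM of all chains at day 0 was 4709 ± 380.0 in ctrl, 4406 ± 481 in libraries labelled Cre, 2757 ± 90.2 in Cre + NFIA and 3424 ± 78.5 in Cre + NFIA Δpro#3 (SD, n = 3). At day 7 the same sums were 4036 ± 95.6, 4663 ± 106, 2900.0 ± 189 and 4318 ± 308. Cre + NFIA held the lowest sum at both days, and its highest library (3118) lay below the lowest library of any other group (3366). A sum over the chains was given no test.

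A few chains carried most of this. By mean over the 24 libraries the order was Col1a1 (772 FPKM), Col6a1 (725), Col1a2 (562), Col3a1 (437), Col5a2 (294) and Col6a2 (243). The family shares shifted between the days. Fibrillar chains held 70.7% of the summed collagen FPKM in ctrl at day 0, 70.0% in libraries labelled Cre, 68.7% in Cre + NFIA and 72.2% in Cre + NFIA Δpro#3, and 38.6%, 50.9%, 35.7% and 60.7% at day 7. In the same order type IV went from 2.77%, 3.02%, 3.55% and 2.90% to 14.8%, 12.2%, 16.8% and 9.74%, and type VI from 22.0%, 22.0%, 22.5% and 20.2% to 39.0%, 31.2%, 39.1% and 24.5%. The multiplexins went from at most 0.716% to 5.58%, 2.17%, 6.53% and 1.03%. The day 7 shares of ctrl and Cre + NFIA lay next to each other in all these families, and Cre + NFIA Δpro#3 had the highest fibrillar share.

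**Figure D1:**
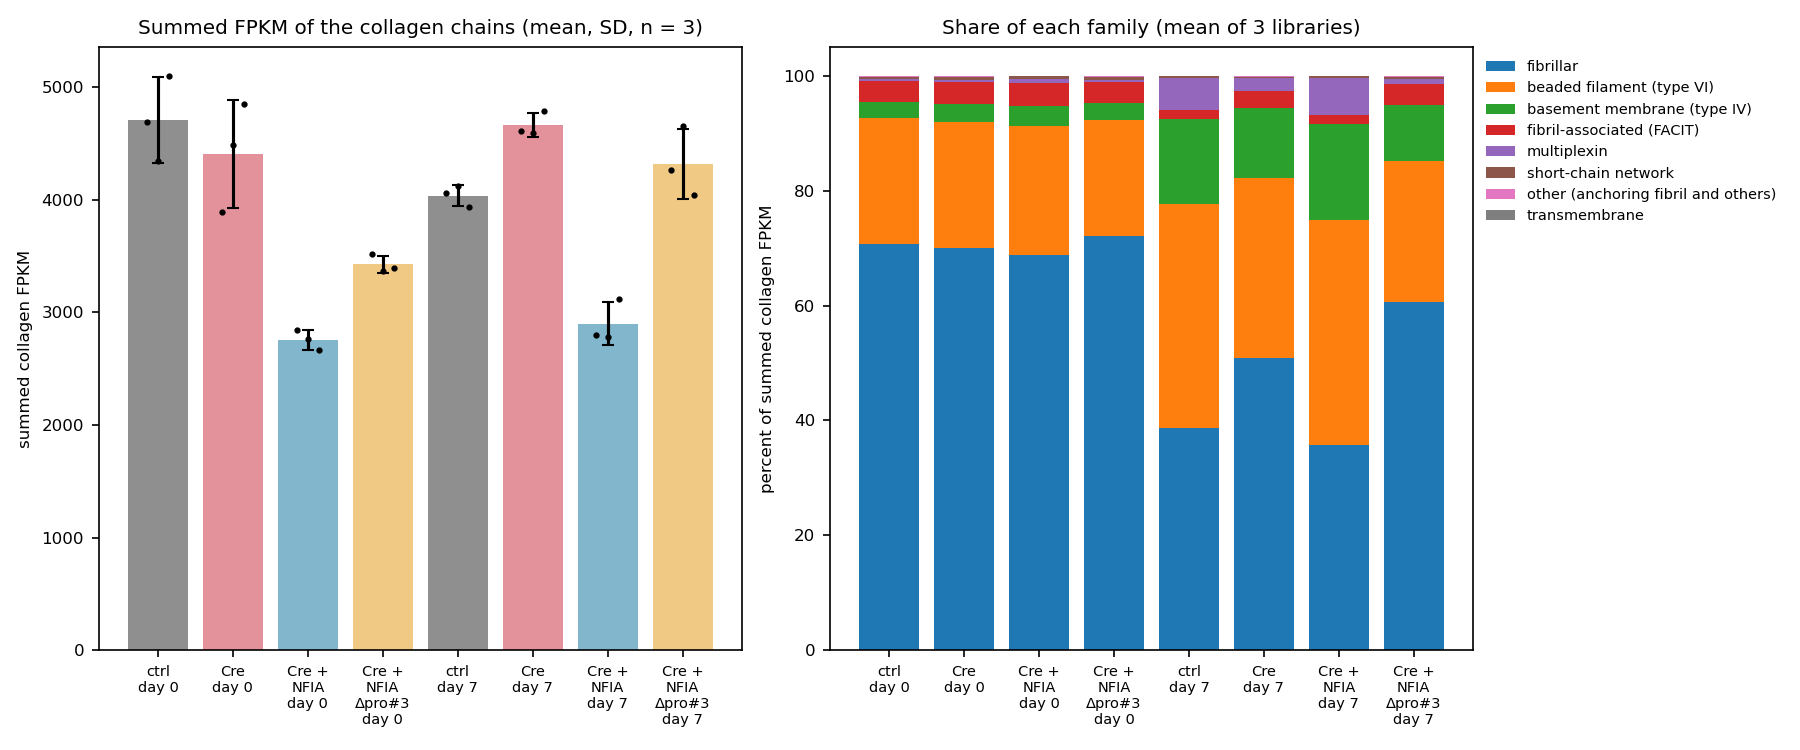
Summed FPKM of the collagen chains in each of the 8 groups (left; bars from 0, mean and SD of 3 libraries) and the percent of that sum in each collagen family (right; means of 3 libraries). Cre + NFIA has the lowest sum at both days (2757 and 2900.0 FPKM), and the fibrillar share is smallest at day 7 in ctrl (38.6%) and Cre + NFIA (35.7%).

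The 13 chains that did not reach the level were Col23a1, Col11a1, Col8a2, Col17a1, Col22a1, Col6a6, Col25a1, Col9a2, Col4a4, Col9a1, Col19a1, Col13a1 and Col4a3. Their highest value in any library was 0.567 FPKM (Col17a1). All 4 transmembrane collagens (Col13a1, Col17a1, Col23a1 and Col25a1) were among them. Just inside the limit was Col26a1, whose third-highest library read 1.25 FPKM, and just outside was Col11a1 with 0.405, so the limit fell in a gap. Col26a1 reached 1 FPKM only in the 3 ctrl libraries of day 7, and Col28a1 only in the 3 of ctrl at day 0. Each entered through the group where it was highest, so its differences from that group are not independent of the limit. Col6a5 reached 1 FPKM only in the 6 ctrl and Cre libraries of day 0, and Col24a1 only in the 12 libraries of day 0. Their falls with days, and the lower day 0 values of Col6a5 with either transgene, are thus not independent of it either.

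Between day 0 and day 7, 7 chains rose in all 4 cell types: Col15a1, Col4a1, Col4a2, Col5a3, Col6a1, Col6a2 and Col6a3. Another 4 fell in all 4, namely Col10a1, Col16a1, Col24a1 and Col8a1. The large fibrillar chains Col1a1, Col1a2 and Col5a2 fell in ctrl, in libraries labelled Cre and in Cre + NFIA, and did not pass the test in Cre + NFIA Δpro#3. Each comparison was tested with limma on log2(FPKM + 1), two-sided, with Benjamini-Hochberg adjustment over all genes tested. A change passed at an adjusted p under 0.05. All fold changes are on that scale, which understates the change of low genes.

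In ctrl 8 of the 31 chains (25.8%) rose and 19 (61.3%) fell, beside 32.9% and 38.1% of all 12640 genes tested. Libraries labelled Cre had 11 chains up (35.5%) and 10 down (32.3%), against 30.0% and 21.6% of all genes. In Cre + NFIA 9 (29.0%) rose and 16 (51.6%) fell, with 31.8% and 38.3% for all genes. Cre + NFIA Δpro#3 showed 14 up (45.2%) and 4 down (12.9%), with 24.5% and 17.0% for all genes, and under quantile normalization the split there was 13 up and 7 down. The shares of rising chains in ctrl, libraries labelled Cre and Cre + NFIA were thus near those of all genes. The median change of the 31 chains was -0.48, -0.05, -0.32 and 0.18 in the 4 cell types, beside -0.05, 0.05, -0.05 and 0.05 for all genes. Changes of at least 3-fold that also passed were 5 up and 4 down in ctrl (5.64% and 2.86% of all genes), 5 and 1 in libraries labelled Cre (2.26% and 0.467%), 5 and 2 in Cre + NFIA (5.78% and 3.31%) and 5 and 1 in Cre + NFIA Δpro#3 (1.14% and 0.316%).

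**Figure D2:**
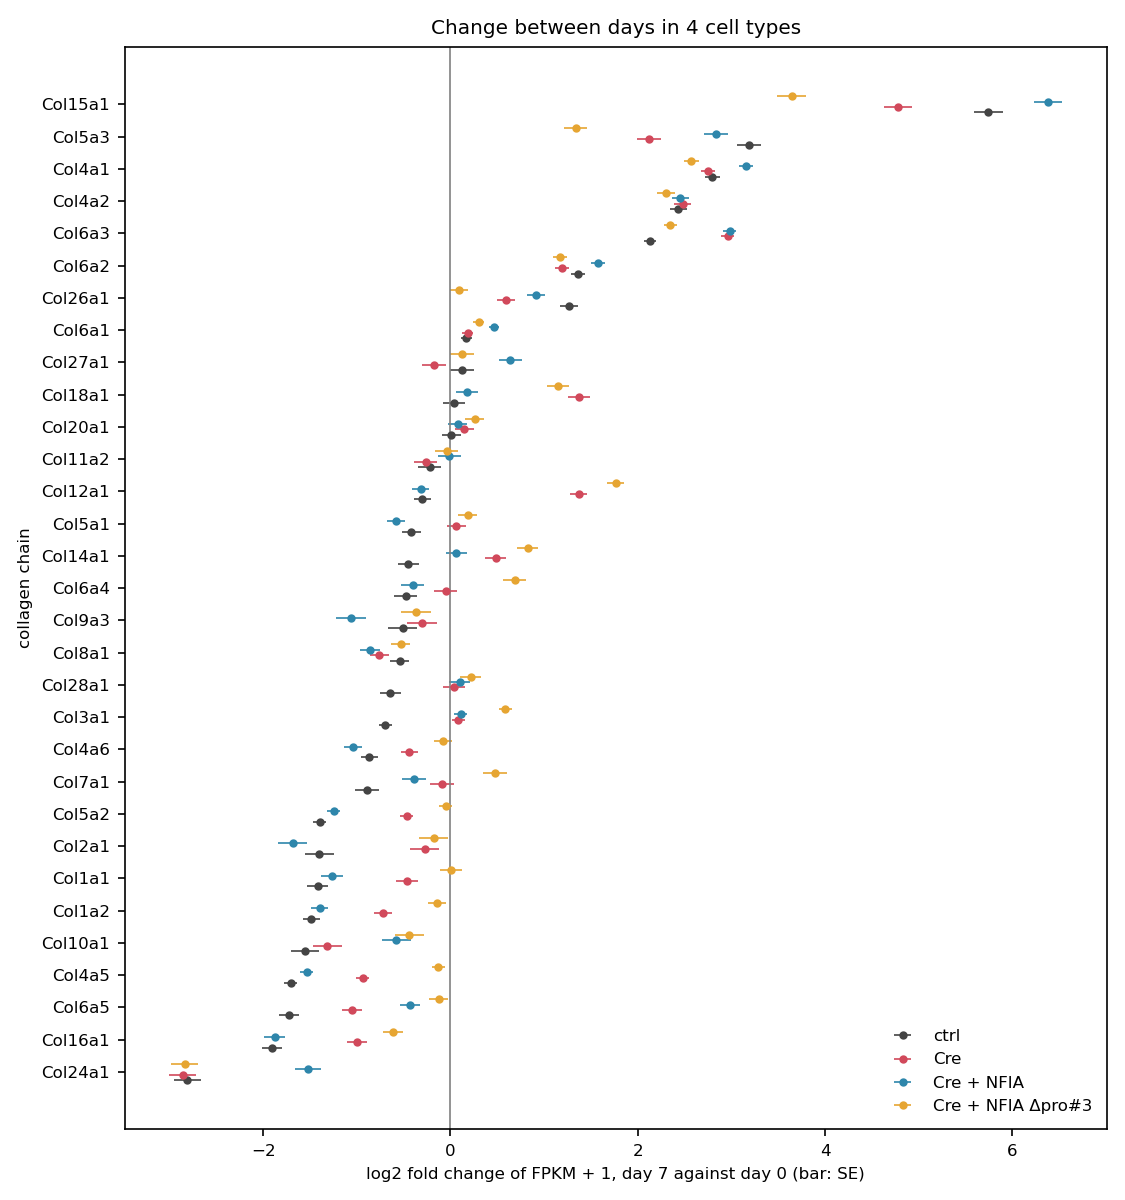
Log2 fold change of FPKM + 1 at day 7 against day 0 for each of the 31 collagen chains (rows) in the 4 cell types (colours), with bars for the standard error. Col15a1, Col4a1, Col4a2 and Col6a3 lie above 2 in every cell type, and the points of Col12a1 fall on both sides of 0.

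Type I collagen, the main protein of connective tissue fibrils, is built from Col1a1 and Col1a2. At day 0 Col1a1 stood at 1102, 940.5 and 1248 in ctrl, at 928, 1194 and 1339 in libraries labelled Cre, at 709.6, 677 and 627 in Cre + NFIA and at 896, 861 and 839 in Cre + NFIA Δpro#3 (FPKM, by library). Its day 7 values were 416, 424 and 384 in ctrl, at 792, 776 and 921 in libraries labelled Cre, at 256, 277 and 304 in Cre + NFIA and at 879, 943 and 790.3 in Cre + NFIA Δpro#3. The Cre + NFIA libraries were the lowest at each day without overlap, and at day 7 those labelled Cre and Cre + NFIA Δpro#3 overlapped at about 2-fold the ctrl level. The change with days was -1.42, -0.46, -1.27 and 0.01 in ctrl, libraries labelled Cre, Cre + NFIA and Cre + NFIA Δpro#3 (SE 0.11), and the last did not pass (adjusted p = 0.98).

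Levels of Col1a2 at day 0 stood at 864, 840.2 and 935 in ctrl, at 715, 833 and 896 in libraries labelled Cre, at 536, 544 and 499.6 in Cre + NFIA and at 676, 657 and 654 in Cre + NFIA Δpro#3. Day 7 levels stood at 327, 315 and 299.6 in ctrl, at 471, 452 and 560.4 in libraries labelled Cre, at 182, 204 and 213 in Cre + NFIA and at 640.1, 648 and 519 in Cre + NFIA Δpro#3. Again Cre + NFIA was lowest, and the Δpro#3 libraries of day 7 lay below those of day 0. The changes with days were -1.48, -0.72, -1.40 and -0.14 (SE 0.09), of which the last did not pass (adjusted p = 0.23). Under quantile normalization the values of Col1a1, Col1a2 and Col5a2 in Cre + NFIA Δpro#3 were 0.21, 0.07 and 0.12, again with no pass. In mm9, Col1a1 lies at chr11:94797538-94814356 and Col1a2 at chr6:4454814-4491543.

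Col3a1 (type III, found with type I in pliable tissue) had its own pattern. Its day 0 libraries stood at 705, 719 and 801 in ctrl, at 404, 450.4 and 483 in libraries labelled Cre, at 219, 238 and 217 in Cre + NFIA and at 376, 359 and 361 in Cre + NFIA Δpro#3. At day 7 they stood at 481, 455 and 437 in ctrl, at 455, 468 and 492 in libraries labelled Cre, at 231, 235 and 262 in Cre + NFIA and at 549, 580.1 and 522 in Cre + NFIA Δpro#3. Ctrl was highest at day 0 and Cre + NFIA lowest at both days. It fell in ctrl by 0.69 on the log2 scale (SE 0.07, adjusted p = 1.1e-08), rose by 0.59 in Cre + NFIA Δpro#3 (adjusted p = 5.8e-07), and gave 0.08 and 0.11 in libraries labelled Cre and Cre + NFIA (adjusted p = 0.32 and 0.15). Col3a1 and Col5a2 lie on mouse chromosome 1, 24.6 kb apart on opposite strands (mm9, chr1:45368383-45406551 and chr1:45431166-45560127).

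Type V collagen starts new fibrils and limits their width. Col5a2, its α2 chain, stood at day 0 at 385, 376 and 403 in ctrl, at 416, 434 and 469.6 in libraries labelled Cre, at 263, 253 and 253 in Cre + NFIA and at 358, 344 and 353 in Cre + NFIA Δpro#3. Its day 7 levels stood at 162, 140.4 and 139.6 in ctrl, at 321, 295 and 339 in libraries labelled Cre, at 100.5, 104 and 119 in Cre + NFIA and at 339, 358 and 323 in Cre + NFIA Δpro#3. Ctrl and Cre + NFIA ended lowest and did not overlap with the other cell types, and the changes with days were -1.39, -0.46, -1.25 and -0.05 (SE 0.07), with adjusted p = 0.62 in Cre + NFIA Δpro#3. Col5a1 moved less, with changes of -0.42, 0.06, -0.58 and 0.18, of which those of ctrl and Cre + NFIA passed.

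The third type V gene went the other way. Col5a3 stood at day 0 at 6.89, 7.54 and 8.50 in ctrl, at 6.55, 8.36 and 10.3 in libraries labelled Cre, at 8.92, 9.24 and 8.70 in Cre + NFIA and at 10.5, 9.44 and 9.35 in Cre + NFIA Δpro#3. At day 7 its libraries stood at 72.3, 85.7 and 75.1 in ctrl, at 39.0, 45.1 and 34.8 in libraries labelled Cre, at 68.8, 65.3 and 76.5 in Cre + NFIA and at 24.03, 31.6 and 23.5 in Cre + NFIA Δpro#3. All day 7 libraries were above all day 0 libraries, and those of ctrl and Cre + NFIA were the highest. The changes of Col5a3 were 3.19, 2.12, 2.84 and 1.34 (SE 0.13, adjusted p at most 3.6e-08).

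Chains best known from cartilage and bone were low but measurable. Col2a1, the main cartilage collagen, stood at day 0 at 6.39, 5.72 and 6.09 in ctrl, at 6.79, 8.39 and 9.05 in libraries labelled Cre, at 13.3, 11.9 and 9.47 in Cre + NFIA and at 16.5, 16.3 and 13.0 in Cre + NFIA Δpro#3. By library the day 7 values were 1.71, 1.54 and 1.77 in ctrl, at 6.29, 7.17 and 5.94 in libraries labelled Cre, at 3.70, 1.84 and 3.34 in Cre + NFIA and at 14.2, 14.6 and 11.3 in Cre + NFIA Δpro#3. It was lowest at day 7 in ctrl and Cre + NFIA and changed by -1.40 and -1.69 there (SE 0.15), while -0.28 and -0.18 in the other cell types did not pass (adjusted p = 0.14 and 0.38). Col24a1, a minor fibrillar chain described in developing bone, stood at day 0 at 7.80, 5.79 and 8.11 in ctrl, at 10.2, 7.40 and 12.8 in libraries labelled Cre, at 2.25, 1.78 and 2.09 in Cre + NFIA and at 11.4, 8.43 and 9.76 in Cre + NFIA Δpro#3. By day 7 it stood at 0.194, 0.160 and 0.139 in ctrl, at 0.420, 0.428 and 0.672 in libraries labelled Cre, at 0.0625, 0.0674 and 0.0383 in Cre + NFIA and at 0.492, 0.544 and 0.497 in Cre + NFIA Δpro#3. Every day 7 library was under 1 FPKM, and the Cre + NFIA libraries were lowest at both days. The chain passed the limit only through day 0, so the limit itself favours its fall. Col24a1 fell by 2.81, 2.86, 1.52 and 2.84 on the log2 scale (SE 0.14, adjusted p at most 5e-09). The smaller fall in Cre + NFIA depended on the FPKM + 1 scale. Under limma voom on recovered reads the difference between the changes in Cre + NFIA and Cre turned sign (-0.81, adjusted p = 0.37).

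Col27a1, a fibrillar chain of cartilage, stood at day 0 at 11.9, 9.14 and 12.6 in ctrl, at 10.7, 12.6 and 16.7 in libraries labelled Cre, at 3.71, 3.30 and 3.68 in Cre + NFIA and at 7.99, 6.86 and 7.34 in Cre + NFIA Δpro#3. It stood at 11.7, 12.5 and 12.3 in ctrl, at 12.4, 11.3 and 10.9 in libraries labelled Cre, at 5.22, 6.41 and 6.81 in Cre + NFIA and at 7.26, 9.12 and 8.16 in Cre + NFIA Δpro#3 at day 7. Cre + NFIA was lowest at both days and was also the cell type in which it rose with days (0.64, SE 0.13, adjusted p = 0.00013); the other 3 cell types gave 0.12, -0.17 and 0.13, which did not pass. Col11a2, a chain of cartilage fibrils, was between 0.654 and 1.72 FPKM in all libraries and passed in none of the 12 comparisons.

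For promoter context, RefSeq sequences (GRCm38.p6) from 250 bases before to 50 bases after the start site were searched on both strands. A window was present for 24 of the 31 chains, 26 windows in all. The letters TTGGC, the core of the sites that NFI proteins bind, were in 12 of 26 windows (46.2%) and in 46.7% of all 32851 promoter windows. The paired form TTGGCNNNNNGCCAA was in 0 of 26, beside 0.0365% of all windows. TATAAA was in 3 of 26 (11.5%, against 13.6% of all) and CCAAT, whose letters can overlap GCCAA, in 9 of 26 (34.6%, against 37.4%). The collagen windows thus held these letters about as often as promoters in general, and a match is a description, not a binding site. The window of Col1a2, the most abundant fibrillar chain with one, is shown with its match, TTGGC, in capitals. The match begins 222 bases before the start site. It covers chr6:4505368-4505667 on the plus strand.

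Col1a2: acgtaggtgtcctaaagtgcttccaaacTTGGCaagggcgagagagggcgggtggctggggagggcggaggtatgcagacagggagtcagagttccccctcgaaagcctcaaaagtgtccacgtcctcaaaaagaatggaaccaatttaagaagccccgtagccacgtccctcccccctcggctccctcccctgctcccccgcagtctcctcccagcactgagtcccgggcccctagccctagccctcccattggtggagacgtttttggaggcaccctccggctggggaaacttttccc

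Both main basement membrane chains rose in all 4 cell types. Col4a1 and Col4a2, which form the network found in nearly all basement membranes, lie head to head on mouse chromosome 8 (mm9, chr8:11198423-11312826 on the minus strand and chr8:11312805-11449287 on the plus strand) and overlap by 22 bases. Reads were counted by strand. Their windows share 78 bases between start sites 21 bases apart, and are shown 5′ to 3′ on each gene's own strand with TTGGC or its complement GCCAA in capitals. Col4a1 (chr8:11312777-11313076, minus strand) has matches that begin 240, 144 and 137 bases before and 41 bases after its start site. Col4a2 (chr8:11312555-11312854, plus strand) has a match 24 bases before its start, the same site as the last of Col4a1.

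Col4a1: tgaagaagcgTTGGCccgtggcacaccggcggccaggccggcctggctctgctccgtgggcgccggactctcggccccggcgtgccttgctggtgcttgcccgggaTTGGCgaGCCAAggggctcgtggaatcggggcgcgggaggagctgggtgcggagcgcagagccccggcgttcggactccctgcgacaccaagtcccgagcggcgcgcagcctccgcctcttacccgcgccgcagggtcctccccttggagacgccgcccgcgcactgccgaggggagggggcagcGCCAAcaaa

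Col4a2: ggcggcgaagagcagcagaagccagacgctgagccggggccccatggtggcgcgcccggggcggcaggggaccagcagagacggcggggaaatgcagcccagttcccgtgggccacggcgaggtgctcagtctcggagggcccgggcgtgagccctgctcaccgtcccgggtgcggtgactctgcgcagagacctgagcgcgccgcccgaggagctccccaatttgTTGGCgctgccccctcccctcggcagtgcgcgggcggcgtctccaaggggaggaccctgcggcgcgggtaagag

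At day 0 Col4a1 stood at 53.3, 51.2 and 53.9 in ctrl, at 41.9, 50.6 and 53.1 in libraries labelled Cre, at 35.4, 33.1 and 35.2 in Cre + NFIA and at 40.8, 37.9 and 37.5 in Cre + NFIA Δpro#3. By day 7 it stood at 359, 398 and 364 in ctrl, at 332, 355 and 306 in libraries labelled Cre, at 318, 298 and 332 in Cre + NFIA and at 217, 258 and 233 in Cre + NFIA Δpro#3. Every day 7 library exceeded every day 0 library, and Cre + NFIA Δpro#3 ended lowest without overlap. The rise was 2.80, 2.75, 3.15 and 2.57 in the 4 cell types (SE 0.08, adjusted p at most 1.6e-15). Col4a2 stood at day 0 at 39.1, 36.9 and 40.8 in ctrl, at 31.3, 39.6 and 42.4 in libraries labelled Cre, at 30.4, 27.9 and 27.4 in Cre + NFIA and at 32.5, 31.4 and 29.4 in Cre + NFIA Δpro#3. In day 7 libraries it stood at 208, 233 and 204 in ctrl, at 213, 231 and 198 in libraries labelled Cre, at 159.8, 151 and 174 in Cre + NFIA and at 147, 175 and 151 in Cre + NFIA Δpro#3. Here the Cre + NFIA and Cre + NFIA Δpro#3 libraries overlapped below those of ctrl and Cre. The rise of Col4a2 was 2.43, 2.48, 2.46 and 2.30 (SE 0.09, adjusted p at most 1.2e-13).

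The other measured type IV pair, Col4a5 and Col4a6, found in fewer basement membranes and 1.31 kb apart on opposite strands of chromosome X, fell in 3 of the 4 cell types. Col4a5 stood at day 0 at 36.3, 34.9 and 38.9 in ctrl, at 44.0, 44.4 and 46.3 in libraries labelled Cre, at 33.9, 33.3 and 31.8 in Cre + NFIA and at 28.5, 27.6 and 28.4 in Cre + NFIA Δpro#3. It stood at 12.3, 9.63 and 9.89 in ctrl, at 23.5, 21.6 and 23.7 in libraries labelled Cre, at 10.4, 11.2 and 10.7 in Cre + NFIA and at 27.6, 26.1 and 23.5 in Cre + NFIA Δpro#3 at day 7. Ctrl and Cre + NFIA were lowest at day 7, and Cre + NFIA Δpro#3 was lowest at day 0. The changes were -1.71, -0.94, -1.54 and -0.13 (SE 0.07), of which the last did not pass (adjusted p = 0.16). Col4a6 lay between 0.272 and 2.004 FPKM and changed by -0.86, -0.44, -1.04 and -0.08, again with no pass in Cre + NFIA Δpro#3 (adjusted p = 0.54).

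Col15a1 had the largest change with days of any chain in each cell type. Its product, type XV collagen, links basement membranes to the fibrils beneath them. The window of Col15a1 (chr4:47207762-47208061, plus strand) is shown because of this range, with its TTGGC matches, 208 and 63 bases before the start site, in capitals. The gene lies at chr4:47221033-47326039 in mm9.

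Col15a1: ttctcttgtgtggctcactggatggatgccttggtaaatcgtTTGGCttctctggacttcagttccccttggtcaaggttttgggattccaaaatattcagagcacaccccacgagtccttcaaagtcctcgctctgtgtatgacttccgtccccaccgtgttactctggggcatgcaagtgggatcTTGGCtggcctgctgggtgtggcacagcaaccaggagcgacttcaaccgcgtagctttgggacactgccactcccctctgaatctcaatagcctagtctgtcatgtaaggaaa

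At day 0 Col15a1 stood at 2.82, 2.78 and 3.23 in ctrl, at 1.20, 1.31 and 1.53 in libraries labelled Cre, at 1.04, 1.02 and 1.02 in Cre + NFIA and at 0.513, 0.750 and 0.589 in Cre + NFIA Δpro#3. Differentiated cells stood at 199, 224 and 208 in ctrl, at 61.6, 78.6 and 52.6 in libraries labelled Cre, at 166, 158 and 180.3 in Cre + NFIA and at 13.1, 22.0 and 24.2 in Cre + NFIA Δpro#3. All day 0 libraries lay between 0.513 and 3.23 FPKM, and at day 7 ctrl was highest, followed by Cre + NFIA, libraries labelled Cre and Cre + NFIA Δpro#3, with no overlap between any of these. The rise was 5.74, 4.78, 6.38 and 3.64 (SE 0.15, adjusted p at most 1.9e-13). The adipocyte marker sums given above had ctrl and Cre + NFIA highest and Cre + NFIA Δpro#3 lowest at day 7 too, and their part in this was not tested.

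Col18a1, the source of the anti-angiogenic fragment endostatin, gave another pattern. It stood at day 0 at 15.6, 12.4 and 16.2 in ctrl, at 11.0, 13.7 and 16.7 in libraries labelled Cre, at 18.9, 19.1 and 18.1 in Cre + NFIA and at 11.7, 10.7 and 9.32 in Cre + NFIA Δpro#3. It stood at 14.0, 16.3 and 15.0 in ctrl, at 37.3, 35.2 and 38.1 in libraries labelled Cre, at 19.3, 21.0 and 23.7 in Cre + NFIA and at 25.7, 26.2 and 22.0 in Cre + NFIA Δpro#3 at day 7. Libraries labelled Cre were highest at day 7 and ctrl lowest. Col18a1 rose in libraries labelled Cre (1.37, SE 0.12, adjusted p = 4.7e-09) and in Cre + NFIA Δpro#3 (1.15, SE 0.12, adjusted p = 1.1e-07), and gave 0.04 and 0.18 in ctrl and Cre + NFIA (adjusted p = 0.78 and 0.19).

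Type VI collagen, which surrounds adipocytes, is a trimer of Col6a1, Col6a2 and a Col6a3-like chain. Col6a1 stood at day 0 at 829, 732 and 858 in ctrl, at 757, 779 and 789 in libraries labelled Cre, at 513, 485 and 503 in Cre + NFIA and at 561, 536 and 566 in Cre + NFIA Δpro#3. At day 7 it stood at 894, 911 and 909 in ctrl, at 894, 885 and 862 in libraries labelled Cre, at 678, 659 and 742 in Cre + NFIA and at 652, 732 and 671 in Cre + NFIA Δpro#3. Both transgene groups lay below ctrl and libraries labelled Cre at each day. Its rise was the smallest of the 7 shared ones, at 0.17, 0.18, 0.47 and 0.30 (SE 0.06). The ctrl value was 0.10 and did not pass without ctrl day 0 replicate 2, and it was 0.07 under quantile normalization, again without a pass. The value in libraries labelled Cre was 0.13 and did not pass with median-of-ratios size factors.

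Col6a2 stood at day 0 at 186, 161 and 194 in ctrl, at 149.6, 159.7 and 172 in libraries labelled Cre, at 106, 97.8 and 102 in Cre + NFIA and at 112, 106 and 117 in Cre + NFIA Δpro#3. By day 7 it stood at 459, 479 and 459.5 in ctrl, at 372, 371 and 355 in libraries labelled Cre, at 298, 286 and 335 in Cre + NFIA and at 234, 282 and 243 in Cre + NFIA Δpro#3. Ctrl ended highest and Cre + NFIA Δpro#3 lowest, and the rise was 1.37, 1.19, 1.58 and 1.17 (SE 0.08, adjusted p at most 1.1e-10). Col6a3, the chain that also gives the fragment endotrophin, rose more. It stood at day 0 at 47.4, 42.1 and 47.9 in ctrl, at 25.6, 23.6 and 28.2 in libraries labelled Cre, at 16.6, 16.3 and 15.5 in Cre + NFIA and at 22.9, 22.9 and 21.9 in Cre + NFIA Δpro#3. It stood at 213, 191 and 208 in ctrl, at 213, 212 and 197 in libraries labelled Cre, at 131, 130.4 and 141 in Cre + NFIA and at 112, 129 and 117 in Cre + NFIA Δpro#3 at day 7. Ctrl began higher than all other cell types, and at day 7 ctrl and libraries labelled Cre overlapped above both transgene groups. The rise of Col6a3 was 2.13, 2.96, 2.98 and 2.35 (SE 0.07, adjusted p at most 1.6e-15).

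Col6a5, a rare chain that resembles Col6a3, fell. It stood at day 0 at 2.80, 3.93 and 3.51 in ctrl, at 2.16, 2.10 and 2.01 in libraries labelled Cre, at 0.272, 0.410 and 0.512 in Cre + NFIA and at 0.673, 0.499 and 0.547 in Cre + NFIA Δpro#3. At day 7 it stood at 0.324, 0.236 and 0.442 in ctrl, at 0.538, 0.388 and 0.565 in libraries labelled Cre, at 0, 0.0431 and 0.0662 in Cre + NFIA and at 0.369, 0.391 and 0.568 in Cre + NFIA Δpro#3. Ctrl was highest at day 0, and every library was under 1 FPKM at day 7. Only the ctrl and Cre libraries of day 0 reached 1 FPKM, so the limit itself favours falls from them. The changes were -1.72, -1.05, -0.43 and -0.13 (SE 0.11), of which that of Cre + NFIA Δpro#3 did not pass (adjusted p = 0.37). Both transgene groups were under 1 FPKM at both days, where the FPKM + 1 scale understates changes most. The changes are therefore not ranked between cell types. Col6a4, another such chain, lay between 0.410 and 2.03 FPKM and changed by -0.48 in ctrl, -0.40 in Cre + NFIA and 0.69 in Cre + NFIA Δpro#3, with -0.05 and no pass in libraries labelled Cre (adjusted p = 0.77).

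Among the fibril-associated chains Col12a1, which coats type I fibrils, passed between cell types at day 7 and not at day 0. At day 0 it stood at 25.3, 26.5 and 25.6 in ctrl, at 26.1, 23.5 and 25.6 in libraries labelled Cre, at 23.6, 23.4 and 22.9 in Cre + NFIA and at 22.7, 23.0 and 22.0 in Cre + NFIA Δpro#3. By day 7 it stood at 24.5, 18.1 and 20.2 in ctrl, at 71.2, 56.1 and 73.0 in libraries labelled Cre, at 17.4, 18.4 and 19.8 in Cre + NFIA and at 76.7, 82.4 and 78.8 in Cre + NFIA Δpro#3. The day 0 libraries lay between 22.0 and 26.5, and at day 7 libraries labelled Cre and Cre + NFIA Δpro#3 lay above ctrl and Cre + NFIA without overlap. Col12a1 (mm9, chr9:79446798-79566638) rose in libraries labelled Cre (1.37, SE 0.09, adjusted p = 8.7e-11) and Cre + NFIA Δpro#3 (1.77, SE 0.09, adjusted p = 2.7e-12) and fell in ctrl (-0.30, SE 0.09, adjusted p = 0.0052) and Cre + NFIA (-0.32, SE 0.09, adjusted p = 0.0037). Without ctrl day 7 replicate 2 the ctrl value was -0.21 and did not pass.

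Col16a1, a chain of fibrils and microfibrils, fell in every cell type. It stood at day 0 at 136, 125 and 154 in ctrl, at 112, 150.3 and 167 in libraries labelled Cre, at 85.5, 76.0 and 78.4 in Cre + NFIA and at 102, 98.3 and 102 in Cre + NFIA Δpro#3. At day 7 it stood at 38.4, 37.8 and 32.3 in ctrl, at 66.8, 70.4 and 73.6 in libraries labelled Cre, at 19.4, 20.4 and 23.5 in Cre + NFIA and at 65.3, 69.7 and 62.2 in Cre + NFIA Δpro#3. Cre + NFIA was lowest at both days, and libraries labelled Cre and Cre + NFIA Δpro#3 overlapped at day 7. The fall was -1.91, -0.996, -1.88 and -0.61 (SE 0.11, adjusted p at most 0.00012). Col14a1, which like Col12a1 binds fibril surfaces, was between 0.434 and 4.28 FPKM, fell in ctrl (-0.45) and rose in libraries labelled Cre (0.48) and Cre + NFIA Δpro#3 (0.83). Col9a3 of cartilage (0.846 to 3.61 FPKM) fell in ctrl and Cre + NFIA (-0.51 and -1.06). Col20a1 (0.826 to 1.51 FPKM) passed only in Cre + NFIA Δpro#3, at 0.26 with adjusted p = 0.045, and missed the threshold under quantile normalization (0.05), without any 1 of the 6 Cre + NFIA Δpro#3 libraries (0.23 to 0.29), and without Cre or Cre + NFIA day 0 replicate 1, ctrl day 7 replicate 3 or Cre + NFIA day 7 replicate 1 (0.26 each).

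The remaining chains were small. Col7a1, which makes the anchoring fibrils of skin, stood at day 0 at 4.62, 4.25 and 4.80 in ctrl, at 6.30, 9.50 and 9.65 in libraries labelled Cre, at 2.37, 2.30 and 2.47 in Cre + NFIA and at 5.06, 3.98 and 4.72 in Cre + NFIA Δpro#3. It stood at 2.11, 1.95 and 1.95 in ctrl, at 7.66, 7.45 and 8.22 in libraries labelled Cre, at 1.53, 1.40 and 1.84 in Cre + NFIA and at 8.17, 6.78 and 5.49 in Cre + NFIA Δpro#3 at day 7. Cre + NFIA was lowest at day 0 and ctrl and Cre + NFIA lowest at day 7. Its changes were -0.89, -0.09, -0.39 and 0.47 (SE 0.13), with no pass in libraries labelled Cre (adjusted p = 0.57), and the last was 0.34 with no pass under quantile normalization. Of the network-forming short chains, Col8a1 of vessel walls (5.07 to 18.1 FPKM) fell by 0.54, 0.76, 0.86 and 0.53 and Col10a1 of growth plate cartilage (0.306 to 5.60 FPKM) by 1.55, 1.32, 0.58 and 0.44 on the log2 scale. The last Col10a1 value did not pass without Cre + NFIA Δpro#3 day 0 replicate 3 (-0.35) or replicate 1 (-0.39), or day 7 replicate 2 (-0.39) or replicate 3 (-0.40).

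Col26a1, described in developing gonads, was at 0 reads in all day 0 libraries of ctrl, libraries labelled Cre and Cre + NFIA Δpro#3. The 147, 46 and 7 reads of their day 7 libraries were at least 48.9-fold, 12.3-fold and 2.40-fold higher relative to library size, against a floor of 3 reads over the 3 libraries of a group, which covers counting error only. In FPKM the day 7 libraries read 1.25 to 1.53 in ctrl, 0.289 to 0.659 in libraries labelled Cre, 0.874 to 0.978 in Cre + NFIA and 0.0560 to 0.0880 in Cre + NFIA Δpro#3. Col28a1, a von Willebrand factor domain collagen (0.333 to 1.54 FPKM), fell in ctrl (-0.64, SE 0.11, adjusted p = 4e-05) and passed in no other cell type. It reached 1 FPKM only in the 3 ctrl libraries of day 0, so the limit itself favours this fall.

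**Figure D3:**
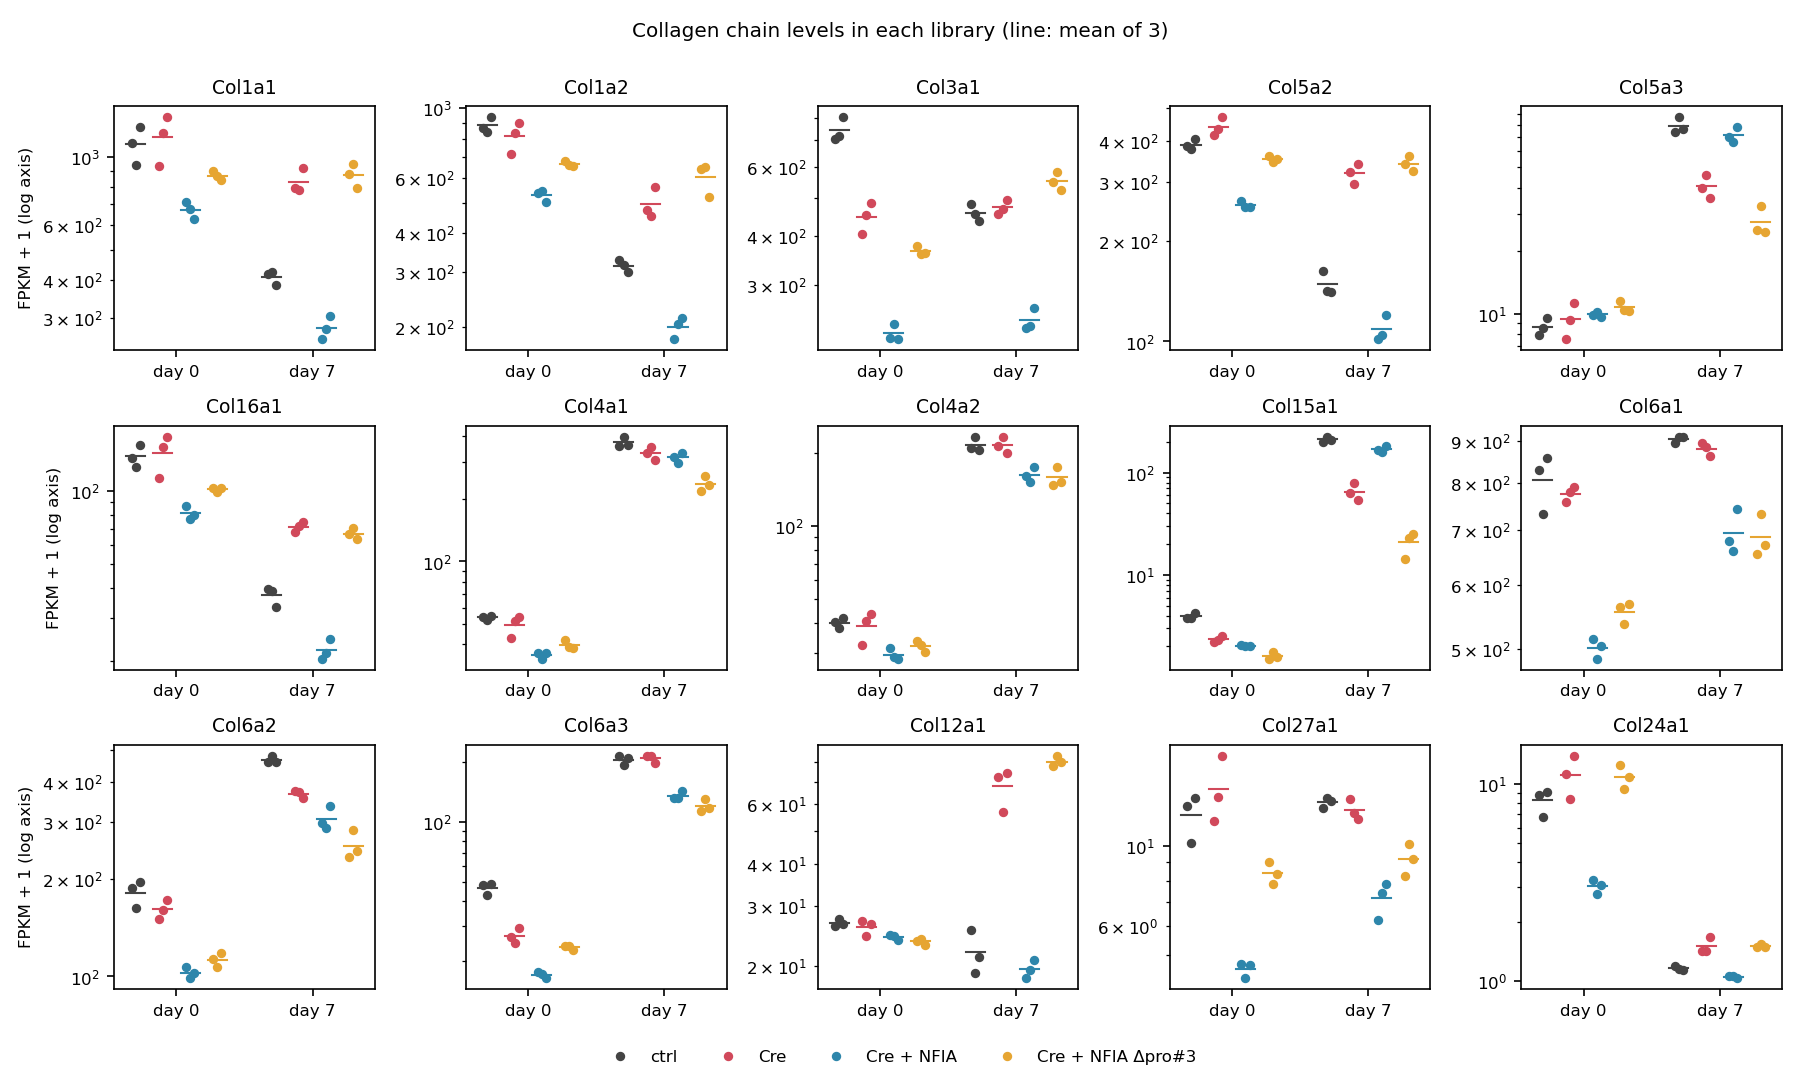
FPKM + 1 on a log axis for 15 collagen chains, with 1 point for each of the 24 libraries, a line at the mean of 3 libraries, and colours for the 4 cell types at day 0 (left in each panel) and day 7 (right). Col15a1, Col4a1, Col4a2 and Col6a3 are higher in every day 7 library than in any day 0 library, and Col12a1 divides at day 7 into 56.1 to 82.4 FPKM (Cre and Cre + NFIA Δpro#3) and 17.4 to 24.5 FPKM (ctrl and Cre + NFIA).

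At day 7 most fibrillar and fibril-associated chains were higher in libraries labelled Cre than in ctrl. Most were lower in Cre + NFIA than in libraries labelled Cre, and higher in Cre + NFIA Δpro#3 than in Cre + NFIA. Col15a1 and Col5a3 went the other way in each. Col26a1 did so too, but it passed the limit only through ctrl at day 7, where it was highest. These comparisons ask how collagen expression follows the label Cre, full-length NFIA and the shortened protein. Each shares libraries with the others, so their values are set side by side and not correlated.

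Relative to ctrl, 15 of 31 chains (48.4%) were higher in libraries labelled Cre and 4 (12.9%) lower, beside 36.1% and 22.7% of all genes. Those higher included 6 of 10 fibrillar, 3 of 5 fibril-associated and 2 of 4 type IV chains. In Cre + NFIA 3 (9.68%) were higher and 24 (77.4%) lower than in libraries labelled Cre, beside 27.0% and 35.9% of all genes, and the lower ones held 8 of 10 fibrillar, 5 of 5 type VI, 4 of 5 fibril-associated and 3 of 4 type IV chains. In Cre + NFIA Δpro#3 3 (9.68%) were higher and 10 (32.3%) lower than in libraries labelled Cre, beside 7.70% and 10.0%. Relative to Cre + NFIA, 19 (61.3%) were higher and 6 (19.4%) lower in Cre + NFIA Δpro#3, beside 40.4% and 28.9%, a split that was 20 and 3 under quantile normalization. The median over the chains was 0.21, -0.62, -0.05 and 0.58 in these 4 comparisons and 0.09, -0.06, 0.02 and 0.10 over all genes. Scaling by median-of-ratios size factors moved the median of all genes by -0.11 in Cre relative to ctrl, by 0.09 in Cre + NFIA relative to Cre and by -0.10 in Cre + NFIA Δpro#3 relative to Cre + NFIA.

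Few chains passed with at least 3-fold on the FPKM + 1 scale. Under limma voom on recovered reads more did in each of these comparisons, as given at the end. In Cre relative to ctrl they were Col12a1, higher (1.63, SE 0.11, adjusted p = 7e-07; 0.237% of all genes), and Col15a1, lower (-1.71, SE 0.19, adjusted p = 1.3e-05; 1.27% of all genes). Without Cre day 7 replicate 3 neither reached 3-fold, and without ctrl day 7 replicate 2 or Cre day 7 replicate 1 only 1 did. In Cre + NFIA relative to Cre they were Col12a1 (-1.79, SE 0.11, adjusted p = 1e-07), Col16a1 (-1.69, SE 0.08, adjusted p = 2e-08) and Col7a1 (-1.76, SE 0.11, adjusted p = 1.3e-07), all lower, beside 1.50% of all genes. That count was 5 without Cre day 7 replicate 2 or Cre + NFIA day 7 replicate 3.

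In Cre + NFIA Δpro#3 relative to Cre the chain past 3-fold was Col15a1, lower (-1.67, SE 0.19, adjusted p = 0.00037; 0.593% of all genes, and 0.0316% higher), and it was under 3-fold without Cre day 7 replicate 2 or Cre + NFIA Δpro#3 day 7 replicate 1. Relative to Cre + NFIA, Cre + NFIA Δpro#3 had 5 chains higher, 2.33% of all genes being so called. They were Col12a1 (2.04, SE 0.11, adjusted p = 2e-08), Col2a1 (1.88, SE 0.16, adjusted p = 6.9e-07), Col5a2 (1.65, SE 0.08, adjusted p = 1.1e-08), Col1a1 (1.64, SE 0.09, adjusted p = 2.2e-08) and Col16a1 (1.60, SE 0.08, adjusted p = 1.3e-08). Lower was Col15a1 (-3.06, SE 0.19, adjusted p = 4.5e-08), the largest of any chain in the 8 comparisons of cell types, with 4.60% of all genes called lower. Col1a2, at 1.58, and Col7a1, at 1.58, lay at the edge of 3-fold, and the count of 6 was 4 without Cre + NFIA replicate 1 or Cre + NFIA Δpro#3 replicate 2 of day 7, and 8 without replicate 3 of either.

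By family, the type I chains gave 1.02 and 0.65 in Cre relative to ctrl (SE 0.09 and 0.10), -1.57 and -1.30 in Cre + NFIA relative to Cre, and 0.07 and 0.28 in Cre + NFIA Δpro#3 relative to Cre, where neither passed (adjusted p = 0.65 and 0.08). Col5a2 gave 1.11, -1.56 and 0.10 (SE 0.08; the last not passed, adjusted p = 0.48), and Col5a1 gave 0.52, -0.66 and 0.05, the last again not passed (adjusted p = 0.72). Col3a1 differed from these. Its value in Cre relative to ctrl was 0.04 (adjusted p = 0.6) and became -0.09 with median-of-ratios size factors, its value in Cre + NFIA relative to Cre was -0.96 (SE 0.07, adjusted p = 2.1e-07), and Cre + NFIA Δpro#3 was 1.18 above Cre + NFIA. In Cre + NFIA Δpro#3 relative to Cre it read 0.22 (adjusted p = 0.039), which missed the threshold without Cre replicate 1 or 2, Cre + NFIA replicate 2 or Cre + NFIA Δpro#3 replicate 1 or 2 of day 7 (0.18 to 0.22), and with only the 2 groups in the model (0.22).

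Col2a1 was higher in libraries labelled Cre than in ctrl (1.48, SE 0.16, adjusted p = 1.3e-05), lower in Cre + NFIA than in libraries labelled Cre (-0.94) and higher in Cre + NFIA Δpro#3 than in libraries labelled Cre (0.94, SE 0.16, adjusted p = 0.0025). Col5a3 ran opposite, at -0.96, 0.81, -0.57 and -1.39 in the 4 comparisons (SE 0.12), all of which passed. Col27a1 was lower in Cre + NFIA (-0.82) and in Cre + NFIA Δpro#3 (-0.45) than in libraries labelled Cre, with -0.07 and no pass in Cre relative to ctrl (adjusted p = 0.54). Col24a1 gave 0.37, -0.51 and 0.52 in the comparisons in which it passed, at levels under 1 FPKM.

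The type IV pair Col4a1 and Col4a2 did not pass between libraries labelled Cre and ctrl (-0.18 and -0.01, adjusted p = 0.074 and 0.96). Both were lower in Cre + NFIA Δpro#3 than in libraries labelled Cre (-0.49 and -0.44, SE 0.08 and 0.09), and Col4a2 but not Col4a1 passed in Cre + NFIA relative to Cre (-0.40 and -0.07, adjusted p = 0.0013 and 0.49). Col4a5 followed the fibrillar chains, with 1.05, -1.03 and, in Cre + NFIA Δpro#3 relative to Cre + NFIA, 1.19 (SE 0.09). Col4a6 gave 0.59, -0.64 and 0.63 in the same comparisons.

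All 5 type VI chains were lower in Cre + NFIA than in libraries labelled Cre, from -0.62 for Col6a3 to -0.26 for Col6a2, which was -0.15 and did not pass with median-of-ratios size factors. The main trio was lower in Cre + NFIA Δpro#3 than in libraries labelled Cre too, with -0.36, -0.54 and -0.79 for Col6a1, Col6a2 and Col6a3. In Cre relative to ctrl Col6a2 alone of the trio passed (-0.35). In Cre + NFIA Δpro#3 relative to Cre + NFIA the trio gave -0.02, -0.28 and -0.17, and under quantile normalization 0.07, 0.0043 and 0.06, so no direction is given there.

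Col18a1 was higher in libraries labelled Cre than in ctrl (1.23, SE 0.09, adjusted p = 7.3e-07), Cre + NFIA (-0.77 in Cre + NFIA relative to Cre) and Cre + NFIA Δpro#3 (-0.57 in Cre + NFIA Δpro#3 relative to Cre). Col7a1 was higher in libraries labelled Cre than in ctrl (1.55, SE 0.11, adjusted p = 1e-06), Col14a1 was lower in Cre + NFIA than in libraries labelled Cre (-1.04, SE 0.12, adjusted p = 9.1e-06), and Col10a1 gave 0.68, -0.72 and 0.58 in Cre relative to ctrl, Cre + NFIA relative to Cre and Cre + NFIA Δpro#3 relative to Cre + NFIA. Col8a1 was lower in Cre + NFIA than in libraries labelled Cre (-0.62). Its value of 0.37 in Cre + NFIA Δpro#3 relative to Cre (adjusted p = 0.044) missed the threshold with the replicate block and, among the day 7 libraries, without ctrl replicate 3, Cre replicate 1 or 2, Cre + NFIA replicate 1 or 3, or Cre + NFIA Δpro#3 replicate 1 or 2 (0.33 to 0.37). Col26a1 gave -0.67, 0.36 and -0.49 in Cre relative to ctrl, Cre + NFIA relative to Cre and Cre + NFIA Δpro#3 relative to Cre, of which the second was 0.25 and did not pass without Cre day 7 replicate 3, and the last was -0.30 with no pass under quantile normalization. Col9a3 gave 0.47 in Cre relative to ctrl, 0.39 and no pass without ctrl day 7 replicate 3. All 12 adipocyte markers were lower in Cre relative to ctrl (median -1.75), higher in Cre + NFIA relative to Cre (median 1.71), lower in Cre + NFIA Δpro#3 relative to Cre (median -2.04), and lower in Cre + NFIA Δpro#3 relative to Cre + NFIA (median -3.86). Of 7 precursor or fibroblast genes tested, 6 were higher and 1 lower, 6 lower, 1 higher, and 7 higher in the same order. The part of either cell type was not tested.

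**Figure D4:**
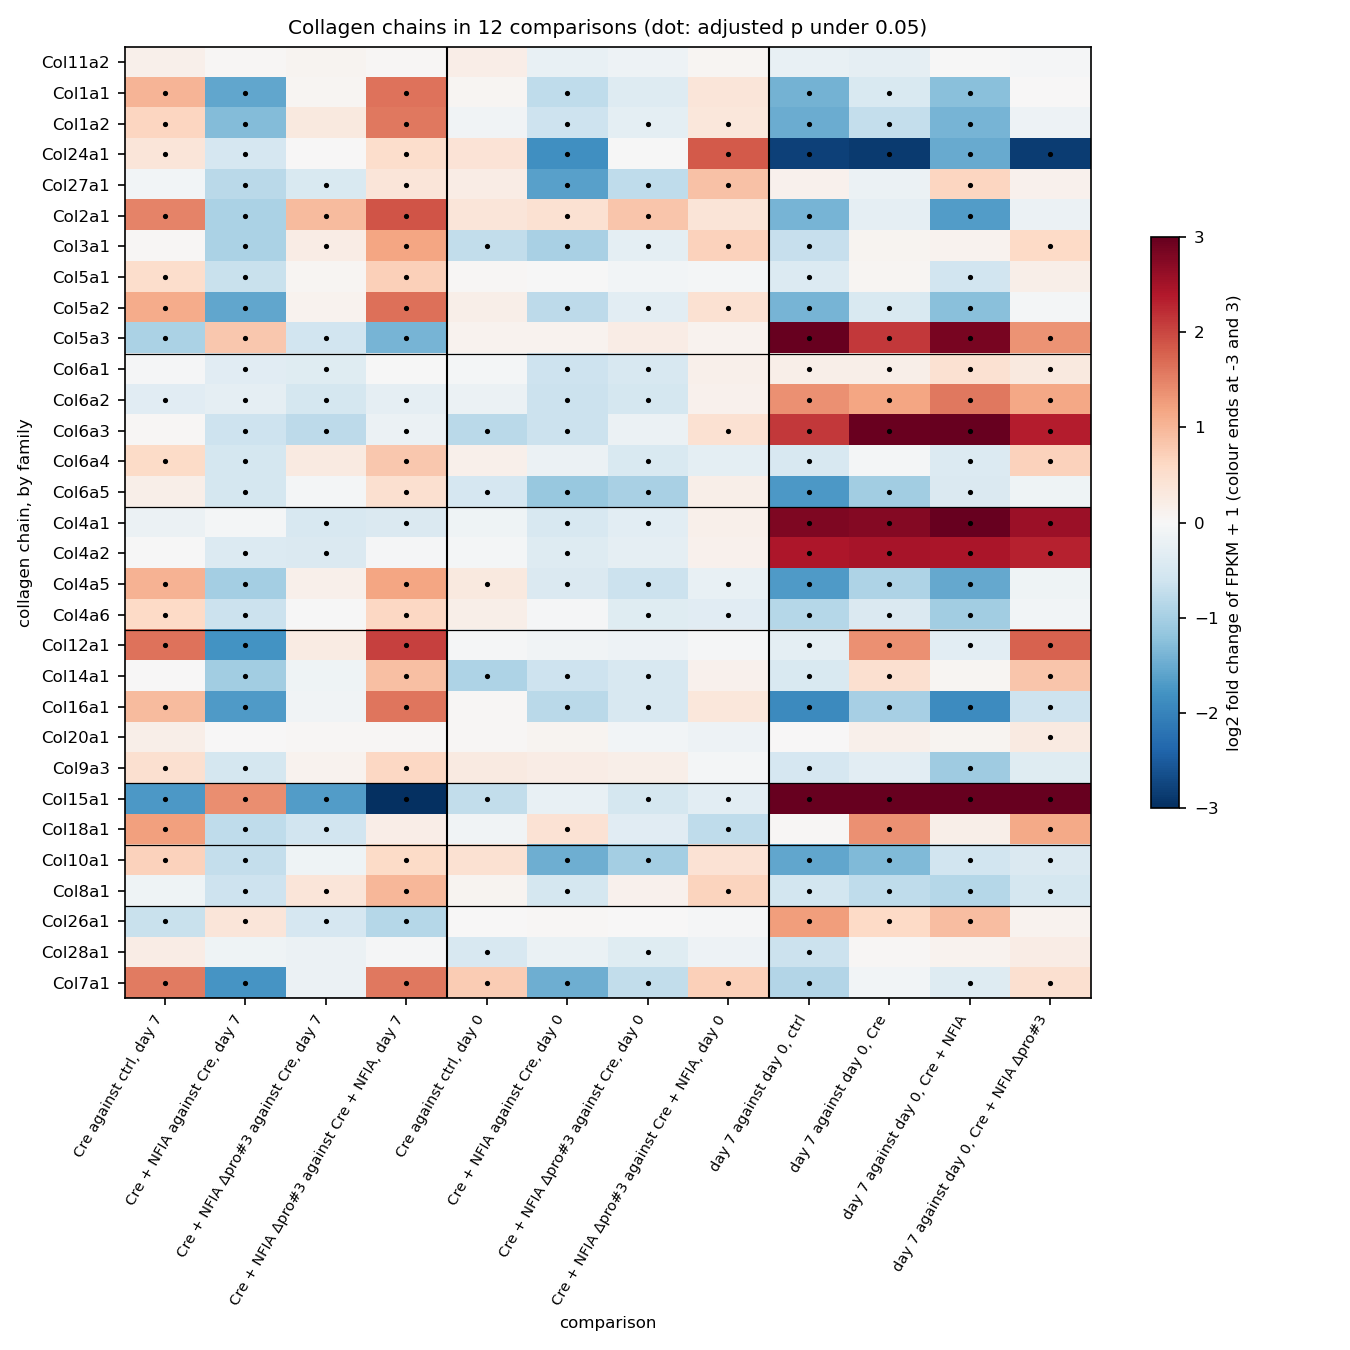
Log2 fold change of FPKM + 1 for the 31 collagen chains (rows, by family) in the 12 comparisons (columns), with a dot where the adjusted p is under 0.05. Cre + NFIA relative to Cre at day 7 has 24 chains lower and 3 higher, and Cre relative to ctrl at day 0 has 8 dots in all.

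Before differentiation, both transgene groups had lower collagen levels than libraries labelled Cre. The libraries labelled Cre differed from ctrl in fewer chains, 8 of 31, which was still a larger share than that of all genes. In Cre relative to ctrl 2 of 31 chains (6.45%) were higher and 6 (19.4%) lower, beside 1.63% and 1.70% of all genes. The lower ones included Col3a1 (-0.73, SE 0.07, adjusted p = 0.00046), Col6a3 (-0.81, SE 0.07, adjusted p = 0.00022), Col14a1 (-0.92, SE 0.10, adjusted p = 0.0012) and Col15a1 (-0.75, SE 0.08, adjusted p = 0.0011). No chain reached 3-fold, here or under limma voom on recovered reads, the largest value being that of Col14a1, beside 0.00791% of all genes called higher and 0.0158% lower. Without ctrl day 0 replicate 2 the number passed was 5 in place of 8, as Col7a1 (0.71), Col6a5 (-0.42) and Col28a1 (-0.45) missed the threshold. Col6a5 (-0.51 to -0.49) and Col7a1 (0.66 to 0.67) also missed it without Cre day 0 replicate 2 or 3, and Col6a5 without ctrl replicate 3 (-0.49). With only the 2 groups in the model 2 chains passed. Col1a1 gave 0.07 (adjusted p = 0.81) and its sign turned without ctrl day 0 replicate 2 (-0.04) or Cre day 0 replicate 3 (-0.05).

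In Cre + NFIA 2 chains (6.45%) were higher and 18 (58.1%) lower than in libraries labelled Cre at day 0, beside 14.7% and 12.9% of all genes, and the median was -0.47 beside 0.02 for all genes. Col24a1 (-1.85, SE 0.18, adjusted p = 3.1e-05) and Col27a1 (-1.63, SE 0.15, adjusted p = 1.9e-05) were lower by at least 3-fold, beside 0.166% of all genes, and 1 of them did so without Cre day 0 replicate 3. Next came Col7a1 (-1.47), Col10a1 (-1.46), Col6a5 (-1.15) and Col3a1 (-0.98). Col6a5 passed the limit only through ctrl and libraries labelled Cre, so the limit favours a lower value here. The type I chains and Col5a2 gave -0.77, -0.62 and -0.77, and the trio of Col6a1, Col6a2 and Col6a3 -0.63, -0.65 and -0.65. Col2a1 (0.47) and Col18a1 (0.43) were higher, but without Cre day 0 replicate 1 they were 0.36 and 0.29 and did not pass. Col2a1 also missed the threshold without Cre + NFIA replicate 1 or 2 (0.36 and 0.44), and Col18a1 without ctrl replicate 1, Cre replicate 2, any Cre + NFIA library or Cre + NFIA Δpro#3 replicate 2 of day 0 (0.42 to 0.45).

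Cre + NFIA Δpro#3 had 1 chain (3.23%) higher and 17 (54.8%) lower than libraries labelled Cre at day 0, beside 9.26% and 9.02% of all genes. The chain that was higher was Col2a1 (0.84, SE 0.13, adjusted p = 0.0017), and among the lower ones were Col10a1 (-1.02, SE 0.15, adjusted p = 0.0013), Col6a5 (-0.97, SE 0.10, adjusted p = 0.00016) and Col4a5 (-0.65, SE 0.05, adjusted p = 1.3e-05), and no chain reached 3-fold (1 chain under limma voom on recovered reads), beside 0.0633% of all genes called higher and 0.0791% lower. The limit favours this lower value of Col6a5 too. Relative to Cre + NFIA, 8 chains (25.8%) were higher and 4 (12.9%) lower in Cre + NFIA Δpro#3, beside 4.50% and 5.59% of all genes. Col24a1 was higher by 1.83 (SE 0.18, adjusted p = 7.4e-05), past 3-fold as 0.0237% of all genes were, and Col27a1 by 0.88, Col7a1 by 0.72, Col3a1 by 0.70, Col8a1 by 0.66 and Col5a2 by 0.45. Of the 12 adipocyte markers 1 was lower in Cre relative to ctrl and 4 were higher in Cre + NFIA relative to Cre. In Cre + NFIA Δpro#3, 1 was higher and 2 lower relative to Cre, and 3 lower relative to Cre + NFIA. Of 7 precursor or fibroblast genes tested, 3 were lower in Cre relative to ctrl. In Cre + NFIA relative to Cre 4 of them were higher and 1 lower. In Cre + NFIA Δpro#3, 1 was higher and 2 lower relative to Cre, and 1 higher and 4 lower relative to Cre + NFIA. The summed level of 6 pericyte or smooth muscle genes at day 0 was 228 FPKM in ctrl, 164 in libraries labelled Cre, 116 in Cre + NFIA and 126 in Cre + NFIA Δpro#3 as group means, and the libraries labelled Cre did not overlap with ctrl or with either transgene group. Of the 5 of these genes tested, 2 were lower in Cre relative to ctrl and 2 lower in Cre + NFIA relative to Cre, and 1 was lower in Cre + NFIA Δpro#3 relative to Cre. The shares of all genes in these comparisons are given above, and the part of any of these cell types in the collagen values was not tested.

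The difference between the 2 days was tested as an interaction. For Cre relative to ctrl 17 of 31 chains had a positive interaction and 3 a negative one, beside 29.7% and 19.5% of all genes. For Cre + NFIA relative to Cre the numbers were 9 and 12, beside 18.8% and 30.1%, and for Cre + NFIA Δpro#3 relative to Cre 10 and 4, beside 7.79% and 10.4%. The type I chains gave 0.95 and 0.77 for Cre relative to ctrl, -0.80 and -0.68 for Cre + NFIA relative to Cre, and 0.47 and 0.58 for Cre + NFIA Δpro#3 relative to Cre. Col3a1 had an interaction for Cre relative to ctrl (0.78, SE 0.10, adjusted p = 1.8e-06) and for Cre + NFIA Δpro#3 relative to Cre (0.50, SE 0.10, adjusted p = 0.001), with 0.03 and no pass for Cre + NFIA relative to Cre (adjusted p = 0.84).

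Chains that join in 1 trimer did not move in fixed proportion. The FPKM ratio of Col6a1 to Col6a2 was 4.47 ± 0.0622 in ctrl, 4.84 ± 0.235 in libraries labelled Cre, 4.92 ± 0.0581 in Cre + NFIA and 4.97 ± 0.110 in Cre + NFIA Δpro#3 at day 0 (SD, n = 3), and 1.94 ± 0.0387, 2.40 ± 0.0216, 2.26 ± 0.0441 and 2.72 ± 0.105 at day 7. The ratio of Col6a3 to Col6a2 went from between 0.158 and 0.254 at day 0 to between 0.438 and 0.565 at day 7. Col4a1 to Col4a2 went from 1.36 ± 0.0320, 1.29 ± 0.0450, 1.21 ± 0.0639 and 1.25 ± 0.0367 to 1.74 ± 0.0381, 1.55 ± 0.0112, 1.96 ± 0.0443 and 1.50 ± 0.0373. Col5a1 to Col5a2 stood at 0.956 ± 0.0942 and 1.18 ± 0.0365 in ctrl and Cre + NFIA at day 7 and at 0.632 ± 0.0188 and 0.612 ± 0.0282 in libraries labelled Cre and Cre + NFIA Δpro#3. Col1a1 to Col1a2 stayed between 1.24 and 1.68 as group means, highest in libraries labelled Cre at day 7. Ratios were given no test.

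**Figure D5:**
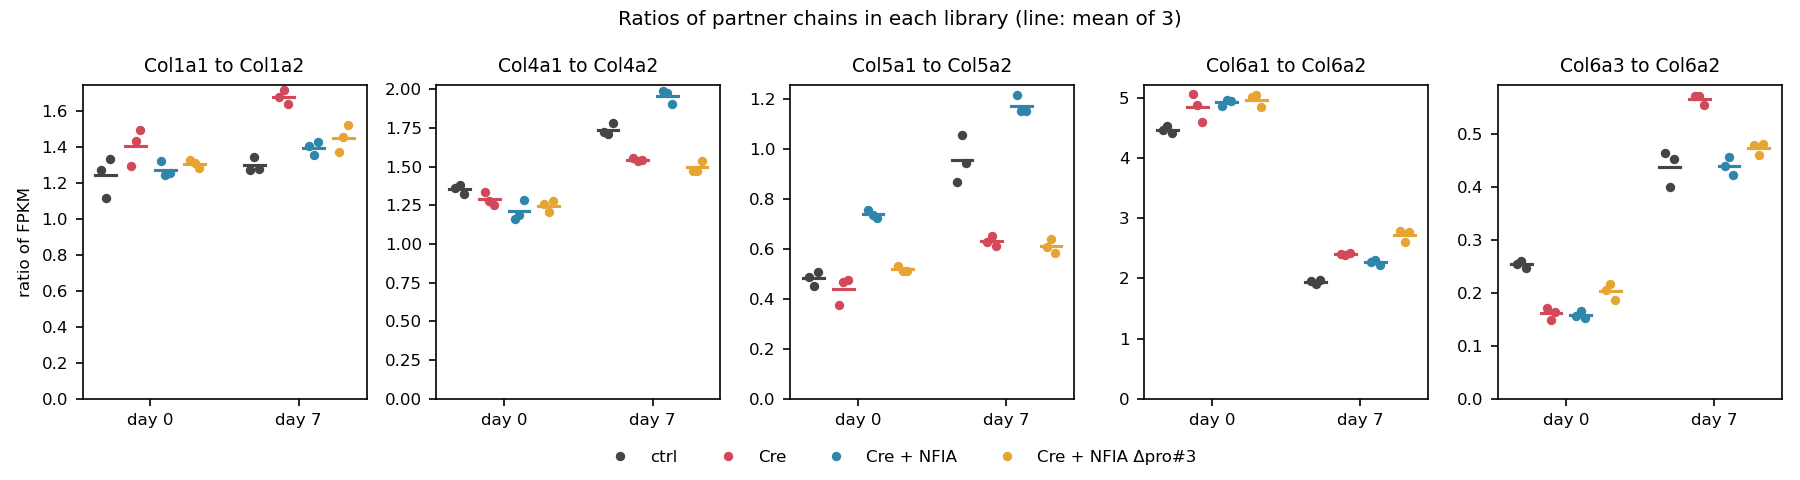
Ratio of FPKM for 5 pairs of collagen chains that share a trimer, with 1 point for each of the 24 libraries, a line at the mean of 3 libraries, and colours for the 4 cell types at day 0 and day 7; axes start at 0. The ratio of Col6a1 to Col6a2 is above 4 in every day 0 library and under 3 in every day 7 library.

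Genes that process collagen were read from lists of enzymes and receptors. Of 16 tested genes for hydroxylation, folding and glycosylation of procollagen, 15 were higher and 1 lower in Cre relative to ctrl at day 7, 1 higher and 15 lower in Cre + NFIA relative to Cre, and 15 higher and 1 lower in Cre + NFIA Δpro#3 relative to Cre + NFIA. Of all genes tested 36.1% were higher in the first comparison, 35.9% lower in the second and 40.4% higher in the third, which is the background of the lists that follow too. The list held 23 symbols, of which 17 were in the files. The symbols not found were earlier names of genes that the list also held under their current names. The exception in each comparison was Plod2, a lysyl hydroxylase, at -0.30, 0.77 and -0.34. Serpinh1, the collagen chaperone, gave 0.40, -0.73 and 0.84 (SE 0.06), and P4ha2, a prolyl hydroxylase subunit, 0.80, -1.32 and 1.41 (SE 0.07). Of 10 genes for export and propeptide cleavage 9 were higher, 8 lower and 9 higher in the same order. Sar1b went the other way in each, and Pcolce2 in the second. Bmp1, the C-proteinase, gave 0.92, -1.33 and 1.41 (SE 0.05), and its enhancer Pcolce 0.94, -1.36 and 1.66 (SE 0.07).

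All 5 lysyl oxidases, which cross-link fibrils, were higher, lower and higher in these comparisons. Lox, the main one, was at 112, 80.6 and 95.6 FPKM in ctrl at day 7, at 220.1, 202 and 242 in libraries labelled Cre, at 57.8, 62.7 and 65.8 in Cre + NFIA and at 204, 217 and 249.6 in Cre + NFIA Δpro#3. Its changes were 1.20, -1.82 and 1.83 (SE 0.12). Of 7 collagen receptors 6 were higher, 6 lower and 5 higher, among them Mrc2, an endocytic collagen receptor (1.17, -1.51 and 1.83, SE 0.08), and Ddr2, a receptor kinase (1.13, -1.26 and 1.57, SE 0.13). In Cre + NFIA Δpro#3 relative to Cre at day 7 the 4 lists had 3, 3, 3 and 1 genes higher, and 1, an export gene, lower, beside 7.70% and 10.0% of all genes. At day 0 they had 1, 1, 3 and 0 higher and 10, 5, 2 and 2 lower in Cre + NFIA relative to Cre, beside 14.7% and 12.9% of all genes. With days, 16 of 16 hydroxylation and folding genes fell in ctrl and in Cre + NFIA, 13 in libraries labelled Cre and 10 in Cre + NFIA Δpro#3, where 1 rose. Of all genes 38.1% fell in ctrl, 38.3% in Cre + NFIA, 21.6% in libraries labelled Cre and 17.0% in Cre + NFIA Δpro#3. The cross-linking enzymes fell 5 of 5 in ctrl and Cre + NFIA, and 2 of 5 in libraries labelled Cre and in Cre + NFIA Δpro#3, where 1 and 2 rose.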

How the data were processed

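RNA-seq was measured in 24 libraries of 8 groups (4 cell types at day 0 and day 7, 3 libraries each). Per the labels and the study's methods, polyA RNA libraries were stranded, and reads were aligned to mm9 with STAR 2.5.3a, keeping uniquely aligned reads and counting those on the matched strand. The annotation behind the counts is not given in the sources used here. The deposited values are FPKM per gene, which the authors computed from counts and the gene lengths listed beside them. Groups came from the sample titles.

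Dividing out gene length and scaling gave whole reads for 100% of values (within 0.05 reads), with 7732829 to 14622189 reads per library. Genes with at least 1 FPKM in at least 3 libraries were tested (12640 of 24825). The deposited values were tested as log2(FPKM + 1) with limma 3.58.1 (R 4.3.3), with its prior variance following mean expression. The recovered reads were tested as an alternative, with limma voom. The 12 libraries of a day shared 1 model for cell types, and all 24 shared 1 for days and interactions. Benjamini-Hochberg adjustment ran over all genes tested, the threshold was 0.05, and 3-fold was asked in addition where stated. Tables were handled in Python 3.11.15. The test was checked on simulated data.

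Every collagen chain over the limit was named, by family, and each was counted. The members, the marker lists and the processing lists were chosen with earlier results of these data known. Replicates of a group differed by more than sampling noise (chi-square per degree of freedom 2.17 to 15.1). Alternatives were a pseudocount of 0.1, no filter, median-of-ratios size factors, quantile normalization, the replicate number as a block, limma voom on recovered reads, only the groups compared, and leaving out each library in turn. Positions are from GENCODE on NCBIM37, the assembly that mm9 names. Promoter windows are from RefSeq (GRCm38.p6), for which coordinates were not converted.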

Additional observations from a re-analysis of the deposited data

Results flagged for a closer look

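For 6 chains a comparison of cell types changed between day 0 and day 7 by at least 2-fold and passed the interaction test (limma, all 24 libraries). For Cre against ctrl the interaction was 1.67 for Col12a1, 1.33 for Col18a1, 1.13 for Col2a1 and -1.06 for Col5a3 on the log2 scale. For Cre + NFIA against Cre it was -1.69 for Col12a1, 1.60 for Col15a1, -1.20 for Col18a1, 1.34 for Col24a1 and -1.41 for Col2a1. For Cre + NFIA Δpro#3 against Cre it was -1.14 for Col15a1. The adipocyte marker sums also differed between cell types at day 7 far more than at day 0, and their part in these interactions was not tested. The Col24a1 value depended on the scale, as its levels at day 7 lay under 1 FPKM in every library. It was 0.29 at a pseudocount of 0.1 (adjusted p = 0.42) and turned sign under voom (-0.81, adjusted p = 0.37). The Col15a1 value for Cre + NFIA Δpro#3 against Cre was under 2-fold and did not pass at that pseudocount (-0.70, adjusted p = 0.055) or under voom (-0.60, adjusted p = 0.46).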

How the results depend on the processing

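The log2 values followed here were those that passed in the main analysis, and those of the 6 most abundant chains in all 12 comparisons. Interactions were followed only where they passed with at least 2-fold. Under the alternatives other than leaving out a library, 1756 values kept their direction and side of the adjusted p threshold. A further 55 no longer passed, 9 came to pass and 11 turned sign. As most had passed beforehand, few could come to pass. The number of chains that passed in Cre against ctrl at day 0 was 8, 2 with only the groups compared, and 5 to 9 leaving out 1 library. The number past 3-fold was 2 in Cre against ctrl at day 7, with 4 at a pseudocount of 0.1, 1 with median-of-ratios size factors, 1 under quantile normalization and 6 under limma voom (0 to 2 leaving out 1 library). It was 3 in Cre + NFIA against Cre at day 7, with 6, 6 and 8 at a pseudocount of 0.1, under quantile normalization and under voom (3 to 5). It was 1 in Cre + NFIA Δpro#3 against Cre at day 7, with 2 and 2 at the pseudocount and under voom (0 to 1). Against Cre + NFIA it was 6, with 11 at the pseudocount, 3 with size factors and 13 under voom (4 to 8). At day 0 it was 2 in Cre + NFIA against Cre, with 5 and 5 (1 to 3), and 0 in Cre + NFIA Δpro#3 against Cre, with 1 and 1. With days in Cre + NFIA it was 7, with 13 and 14. The pseudocount and voom raise the changes of low genes by construction. With size factors the summed FPKM was 4287 in ctrl and 4499 in libraries labelled Cre at day 7. The interaction of Col24a1 for Cre + NFIA against Cre was 0.29 at a pseudocount of 0.1 and -0.81 under voom, and that of Col15a1 for Cre + NFIA Δpro#3 against Cre was -0.70 and -0.60. The other values that turned sign did so as follows, and the cause was not tested. In Cre against ctrl, Col3a1 at day 7 was -0.094 with size factors, Col6a1 at day 7 was 0.12 and Col1a1 at day 0 -0.10 under quantile normalization, and Col1a1 at day 0 was -0.050 to 0.21 leaving out 1 library. In Cre + NFIA Δpro#3 against Cre + NFIA at day 7, Col6a1, Col6a2 and Col6a3 were 0.068, 0.0043 and 0.056 under quantile normalization, and Col6a1 was -0.065 to 0.034 leaving out 1 library. With days, Col3a1 in Cre + NFIA was -0.15, and Col1a2 and Col5a2 in Cre + NFIA Δpro#3 were 0.067 and 0.12 under quantile normalization, and Col1a1 there was -0.052 with size factors and -0.054 to 0.073 leaving out 1 library. Same-numbered libraries did not deviate together (correlations of -0.27 to 0.20 between pairs), and the replicate block gave the same number of passed chains in 9 of 12 comparisons, with a change of at most 2. Library depth limits the chains near 1 FPKM most.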
